A study of Homo sapiens with 16 samples.

Results

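Genes that move nitrogen between glutamine, glutamate, asparagine, alanine, aspartate and proline were followed across all groups of the series. They were listed by name, with no threshold on a measured value but with earlier results of these data known, in view of the 0.1 mM glutamine of the ischemic medium. The set holds 9 genes, and 8 of them had values in both expression tables, which list 13559 and 14024 genes. These are ASNS, GLUL, GLUD1, GOT1, GOT2, GPT2, PYCR1 and ALDH18A1, and PRODH was not analysed here.

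Glutamine is the main carrier of nitrogen in cultured cells. It gives its amide group to asparagine through asparagine synthetase (ASNS), and is made again from glutamate and ammonia by glutamine synthetase (GLUL). Glutamate in turn passes its amino group to keto acids through aminotransferases (GOT1, GOT2, GPT2), loses it as ammonia through glutamate dehydrogenase (GLUD1), or is built into proline by the enzymes P5C synthase (ALDH18A1) and P5C reductase (PYCR1). Asparagine synthetase is known as a target of the transcription factor ATF4, which is translated when amino acids are short, and glioma cells are known for high use of glutamine.

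All libraries came from LN229, an established human glioblastoma line, and each of the 8 groups held 2 libraries. In the first experiment, untreated cells in regular culture (DMEM with 10% fetal bovine serum) were compared with untreated cells in ischemic culture, a medium with 2 mM glucose, 0.1 mM glutamine, 1% serum and no pyruvate held at about 1% oxygen. In the second experiment, cells in regular or ischemic culture received the vehicle DMSO, VX745, which inhibits the kinase p38α, or MK25, which inhibits its target kinase MK2, which gave 6 groups and 12 libraries. The study's methods list VX745 at 2 µM and MK25 at 10 µM without naming the sequencing experiment, and the time in ischemia before RNA extraction is not given in the sources used here. The ischemic culture changes glucose, glutamine, serum, pyruvate and oxygen at once, so that the part of each of them cannot be told apart. Nothing in the labels says whether the libraries of a group came from separate cultures, so p-values measure the spread between these libraries, which may be technical.

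Values are log2 normalized CPM, the reads of a gene scaled to the depth of its library, so that a difference of 1 is a doubling. The libraries held between 20122017 and 37562668 reads on listed genes, and the 8 genes between 723 and 20765 reads in a library. Their SD within a group had a median of 0.03 and reached 0.15 on the log2 scale. The 10 most abundant genes took between 4.23% and 4.65% of the reads in regular libraries and between 5.66% and 6.45% in ischemic libraries. Of the markers of glioma cells, VIM, CD44, NES, SOX2 and EGFR were detected. OLIG2 was low, between 0.94 and 3.09, and GFAP stayed between −0.36 and 1.06. SOX2 lay between 6.472 and 6.475 in regular and between 3.128 and 3.595 in ischemic untreated libraries. In the second experiment it lay between 5.59 and 6.07 against 3.58 and 3.93. NES was also lower, and VIM and EGFR were higher, in ischemic libraries of both experiments. Of 4 immune markers, CD68 had values, and PTPRC, CD14 and AIF1 were not analysed here, nor were the endothelial markers PECAM1, CDH5 and VWF. CD68, a lysosomal protein, lay between 4.47 and 4.54 in regular and between 5.18 and 5.37 in ischemic untreated libraries, and between 4.92 and 5.27 against 5.72 and 6.01 in the second experiment. What part these marker shifts have in the culture differences was not tested. A gene was called when its adjusted p was under 0.05 in limma, a linear model with a shared estimate of the spread, with the Benjamini-Hochberg adjustment over all genes of the table.

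The promoters of 3 genes are shown first. ASNS and GOT1 rose in ischemic cells and fell there with both inhibitors, whereas GOT2, which encodes the mitochondrial counterpart of GOT1, fell in ischemia. Each run is the 250 bases before the start site, from RefSeq on GRCh38.p14, minus strand, written 5′ to 3′. The letters TGATGNAA, the core of the C/EBP-ATF response element to which ATF4 binds with a C/EBP partner, were searched on both strands and are in capitals where they match. The windows lie at chr7:97872409-97872658 for ASNS, chr10:99430625-99430874 for GOT1 and chr16:58734317-58734566 for GOT2.
ASNS: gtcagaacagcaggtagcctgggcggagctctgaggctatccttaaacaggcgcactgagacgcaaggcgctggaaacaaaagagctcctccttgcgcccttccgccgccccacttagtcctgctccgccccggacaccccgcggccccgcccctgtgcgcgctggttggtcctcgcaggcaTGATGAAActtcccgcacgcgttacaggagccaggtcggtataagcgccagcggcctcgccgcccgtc
GOT1: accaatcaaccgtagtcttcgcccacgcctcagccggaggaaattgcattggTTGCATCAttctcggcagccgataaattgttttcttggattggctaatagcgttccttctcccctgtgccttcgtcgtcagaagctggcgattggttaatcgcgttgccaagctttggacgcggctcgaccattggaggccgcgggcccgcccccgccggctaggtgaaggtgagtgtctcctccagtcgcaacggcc
GOT2: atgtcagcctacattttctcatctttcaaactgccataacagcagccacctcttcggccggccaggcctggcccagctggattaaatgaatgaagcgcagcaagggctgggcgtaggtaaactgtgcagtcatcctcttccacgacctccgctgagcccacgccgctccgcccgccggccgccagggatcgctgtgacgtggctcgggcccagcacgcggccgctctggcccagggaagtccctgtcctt
The ASNS window shown held TGATGAAA from 68 to 61 bases before the start site. Another ASNS start site, with its window at chr7:97872166-97872415, had no match. The GOT1 window held TGATGCAA on the opposite strand, from 198 to 191 bases before its start site. GLUD1, which also rose in ischemic cells and fell there with both inhibitors, had no match in its window. ASNS and GOT1 were the only genes with a match among the 6 with a RefSeq entry. GPT2 and PYCR1, which also rose in ischemic cells, had no entry and were not searched. In windows that also take in 50 bases past the start site, 2 of the 8 windows of the 6 genes with a RefSeq entry held the motif, against 3.62% of 35116 windows. The hypoxia response core ACGTG was found in 2 of these 8 windows (ALDH18A1 and GOT2) and in 21.4% of all windows, GCGTG in 7 of the 8 and in 36.5% of all windows, and the E-box CACGTG, which contains ACGTG, in 1 of the 8 (ALDH18A1) and in 7.26%. A match describes letters and no binding was measured.

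In ischemic culture, the genes for asparagine and alanine synthesis and for the last step of proline synthesis were much higher, and that for mitochondrial aspartate aminotransferase was lower. Among the 8 genes, 7 were called in untreated cells, 5 higher and 2 lower, where 70.4% of all genes were called, 35.2% higher and 35.2% lower. With DMSO 7 were called, 6 higher and 1 lower, where 69.6% of all genes were called, 34.4% higher and 35.2% lower. A called share this close to that of the whole table is no result about these genes. With a fold change of at least 2 as well, 5 of 8 were called in untreated cells (background 20.4%) and 4 of 8 with DMSO (background 17.1%). The median log2 difference of the 8 genes was 0.78 and 0.87, and that of all genes −0.01 in both experiments. In bulk RNA, fewer cells of a kind and less RNA per cell cannot be told apart.

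**Figure D1:**
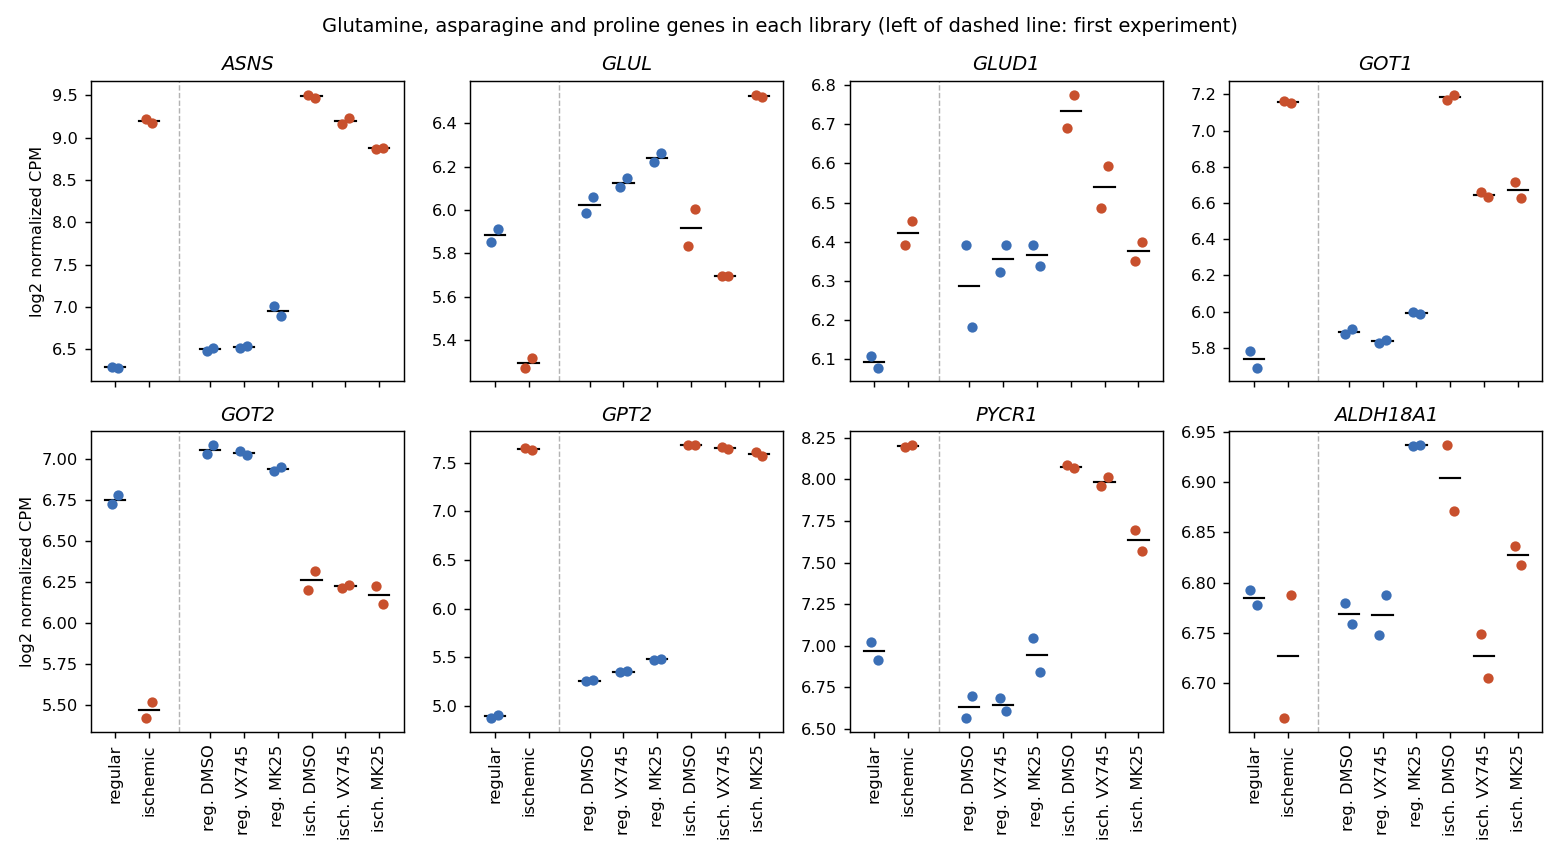
Log2 normalized CPM (vertical axis, its own range in each panel) of the 8 genes in each library, with regular groups in blue, ischemic groups in red and the group mean as a bar. ASNS, GPT2, GOT1 and PYCR1 lie higher in every ischemic library than in any regular library of the same experiment, GOT2 lies lower, and GLUL is highest in ischemic cells with MK25.

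ASNS makes asparagine from aspartate with glutamine as the nitrogen donor. It stood at 6.28 and 6.29 in untreated regular libraries and at 9.17 and 9.22 in ischemic ones, and with DMSO at 6.48 and 6.51 against 9.47 and 9.51. Regular and ischemic libraries were thus far apart, with no overlap. In untreated cells it rose 7.51-fold (log2 difference 2.91, standard error 0.06, limma adjusted p = 3.06e-12), and with DMSO 7.93-fold (2.99, standard error 0.05, limma adjusted p = 8.02e-18). ASNS had the largest difference of the 8 genes in both experiments. Of the ASNS transcript's 31-base words, 99.5% also occur in a same-strand readthrough locus (ENSG00000284707), so the reads of these loci cannot be told apart.

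GPT2 encodes the mitochondrial alanine aminotransferase, which moves nitrogen from glutamate to pyruvate. Its values were 4.88 and 4.91 in untreated regular cells against 7.64 and 7.65 in ischemic cells, and 5.26 and 5.26 against 7.68 and 7.68 with DMSO. The groups did not overlap, and the SD within a group was at most 0.02. GPT2 rose by 2.75 (standard error 0.07, limma adjusted p = 1.00e-11) and 2.42 (standard error 0.05, limma adjusted p = 7.24e-17), or 6.73-fold and 5.35-fold. Its cytosolic paralog GPT was low. It rose by 0.65 in untreated cells, at 0.90 ± 0.03 in ischemic and 0.24 ± 0.24 in regular culture (SD, n = 2 each; limma adjusted p = 0.0406). With DMSO, at 1.31 ± 0.19 against 1.06 ± 0.43 (SD, n = 2 each), the difference was 0.25 and did not pass.

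The aspartate aminotransferases moved in opposite directions. GOT1, the cytosolic enzyme, had values of 5.69 and 5.79 in untreated regular cells and 7.15 and 7.16 in ischemic cells, and of 5.88 and 5.90 against 7.17 and 7.20 with DMSO. It rose 2.68-fold (log2 difference 1.42, standard error 0.07, limma adjusted p = 3.83e-09) and 2.45-fold (1.29, standard error 0.05, limma adjusted p = 9.41e-13). GOT2, the mitochondrial enzyme, went from 6.72 and 6.78 to 5.42 and 5.52 in untreated cells, and from 7.03 and 7.08 to 6.20 and 6.31 with DMSO. All ischemic libraries lay under all regular libraries of their experiment. It fell 2.43-fold (log2 difference −1.28, standard error 0.07, limma adjusted p = 1.55e-08) and 1.74-fold (−0.80, standard error 0.06, limma adjusted p = 1.70e-09). A share of 6.69% of the exonic bases of GOT2 lies opposite an antisense gene (ENSG00000245768), and the library kit is not stated to keep strand.

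Of the proline genes, PYCR1 rose in both experiments, and ALDH18A1 passed the test with DMSO alone, with a small difference. PYCR1, which makes proline from P5C in mitochondria, had values of 6.92 and 7.02 in untreated regular cells against 8.20 and 8.21 in ischemic cells, and of 6.57 and 6.70 against 8.07 and 8.09 with DMSO. The groups were apart, and the difference was 1.23 (standard error 0.07, limma adjusted p = 9.77e-09) and 1.45 (standard error 0.07, limma adjusted p = 5.50e-12). ALDH18A1, which makes P5C from glutamate, had values of 6.78 and 6.79 against 6.67 and 6.79 in untreated cells, where the groups overlapped, and of 6.76 and 6.78 against 6.87 and 6.94 with DMSO. Its difference was −0.06 (limma adjusted p = 0.475) in untreated cells and 0.13 (standard error 0.05, limma adjusted p = 0.0293) with DMSO. The DMSO call was lost in 5 of 12 alternatives, among them quantile normalization, which left 0.05. For PYCR1, 19.8% of the exonic bases lie opposite an antisense gene (ENSG00000263585).

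For the enzymes that interconvert glutamine, glutamate and ammonia the differences were smaller. GLUD1, which releases ammonia from glutamate, had values of 6.08 and 6.11 against 6.39 and 6.45 in untreated cells and of 6.18 and 6.39 against 6.69 and 6.78 with DMSO. It rose by 0.33 (standard error 0.07, limma adjusted p = 0.00117) and 0.45 (standard error 0.07, limma adjusted p = 1.81e-05), that is 1.26-fold and 1.36-fold. GLUL, which fixes ammonia onto glutamate, had values of 5.85 and 5.91 against 5.27 and 5.32 in untreated cells and of 5.98 and 6.06 against 5.83 and 6.003 with DMSO. The untreated groups were apart, whereas the DMSO groups overlapped. GLUL fell 1.501-fold in untreated cells (log2 difference −0.59, standard error 0.08, limma adjusted p = 2.13e-05), and the difference with DMSO was −0.10 (95% interval −0.24 to 0.03, limma adjusted p = 0.149). Whether the experiments differ in GLUL was not tested, since their tables were normalized separately. GLUD1 shares 32.7% of its 31-base words with the retrocopy gene GLUD2, which stood at 1.75 ± 1.08 in ischemic and 1.39 ± 0.98 in regular DMSO cells (SD, n = 2 each), against 6.73 and 6.29 for GLUD1, and 14.1% of GLUD1 exonic bases lie opposite SHLD2.

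**Figure D2:**
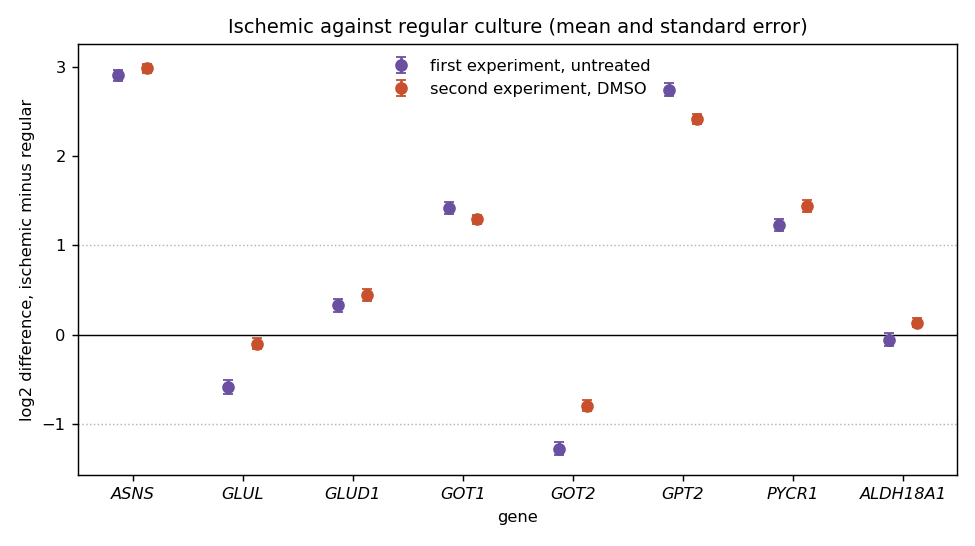
Log2 difference between ischemic and regular culture (vertical axis) for each gene, with points for the mean of 2 against 2 libraries and bars for the standard error from limma. Dotted lines mark a 2-fold change, and ASNS and GPT2 lie above 2 in both experiments while GOT2 lies below 0.

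Compared per length, the order of the genes also differed between the cultures. In regular DMSO cells, GOT2 was highest at 54.9 CPM per kilobase of the canonical transcript, followed by PYCR1 at 43.7, ASNS at 37.9, ALDH18A1 at 32.5, GOT1 at 30.0, GLUD1 at 23.7, GPT2 at 9.59 and GLUL at 8.61, with no overlap between neighbours. In ischemic DMSO cells, ASNS came first at 301 CPM per kilobase, then PYCR1 at 119, GOT1 at 73.5, GPT2 at 51.3 and ALDH18A1 at 35.7. GLUD1 at 32.2 and GOT2 at 31.6 overlapped between libraries and had no order, and GLUL was again last at 8.01. The place of GLUL depends on its canonical length of 7.554 kilobases, against 3.992 for GPT2. Without division by length, GLUL had a mean of 65.0 CPM in regular DMSO cells and GPT2 one of 38.3. With MK25, the top of the list in regular cells could not be ordered, since PYCR1, ASNS and GOT2 stood at 54.3, 51.8 and 50.5 CPM per kilobase with overlapping libraries.

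The inhibitor libraries addressed whether p38 and its target kinase MK2 shape the response to ischemia. In ischemic cells, VX745 lowered 5 of the 8 genes relative to DMSO and raised none, where 28.9% of all genes were called, 14% higher and 14.9% lower. None of the 8 reached a 1.5-fold change (background 5.26%). GOT1 had the largest difference, and the median of the 8 genes was −0.18 where that of all genes was 0.00. The ischemic DMSO libraries are shared by the VX745 and MK25 comparisons and by the DMSO comparison of the cultures.

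GOT1 stood at 6.63 and 6.66 with VX745 against 7.17 and 7.20 with DMSO. The groups were well apart, and GOT1 fell 1.45-fold (log2 difference −0.54, standard error 0.05, limma adjusted p = 3.18e-06), a call kept under all 12 alternatives. ASNS stood at 9.16 and 9.23 with VX745, below the DMSO libraries, and fell by 0.29 (standard error 0.05, limma adjusted p = 0.000699). That call was lost under quantile normalization, where the difference was −0.07. GLUL had the nearly equal values of 5.69 and 5.70 and fell by 0.22 (standard error 0.06, limma adjusted p = 0.0132). For GLUD1 and ALDH18A1 the differences were −0.19 and −0.18 (limma adjusted p = 0.0449 and 0.0171). The differences of GPT2, PYCR1 and GOT2, at −0.03, −0.09 and −0.04, did not pass the test, with 95% intervals reaching no lower than −0.24 and no higher than 0.09. Under quantile normalization 2 of the 8 genes were called, GLUL and GOT1, and 3, 3, 2 and 2 were called without DMSO replicate 1, DMSO replicate 2, VX745 replicate 1 and VX745 replicate 2.

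With MK25, GLUL rose in ischemic cells while ASNS, GOT1, PYCR1 and GLUD1 fell. That is 5 of 8 genes called, with 41.7% of all genes called (19.8% higher, 22% lower). GLUL and ASNS also passed a fold change of 1.5 (background 9.67%). The median of the 8 genes was −0.22, and that of all genes was 0.00.

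GLUL stood at 6.52 and 6.53 with MK25, above both DMSO libraries at 5.83 and 6.003 and above every other library of the second experiment, regular ones included. It rose 1.52-fold (log2 difference 0.61, standard error 0.06, limma adjusted p = 1.21e-06). ASNS stood at 8.86 and 8.88 against 9.47 and 9.51 and fell 1.53-fold (log2 difference −0.61, standard error 0.05, limma adjusted p = 1.90e-07), still well above all regular libraries. Quantile normalization reduced that difference to −0.35, and the call remained. GOT1, at 6.63 and 6.71, fell 1.43-fold (log2 difference −0.51, standard error 0.05, limma adjusted p = 1.59e-06). PYCR1, at 7.57 and 7.70, fell 1.36-fold (log2 difference −0.44, standard error 0.07, limma adjusted p = 8.56e-05). GLUD1, at 6.35 and 6.40, fell 1.28-fold (log2 difference −0.36, standard error 0.07, limma adjusted p = 0.00055) to near the regular DMSO libraries at 6.18 and 6.39. All 5 calls were kept under each of the 12 alternatives. GPT2, ALDH18A1 and GOT2 differed by −0.09, −0.08 and −0.09 (limma adjusted p = 0.185, 0.254 and 0.234), with 95% intervals between −0.21 and 0.03.

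**Figure D3:**
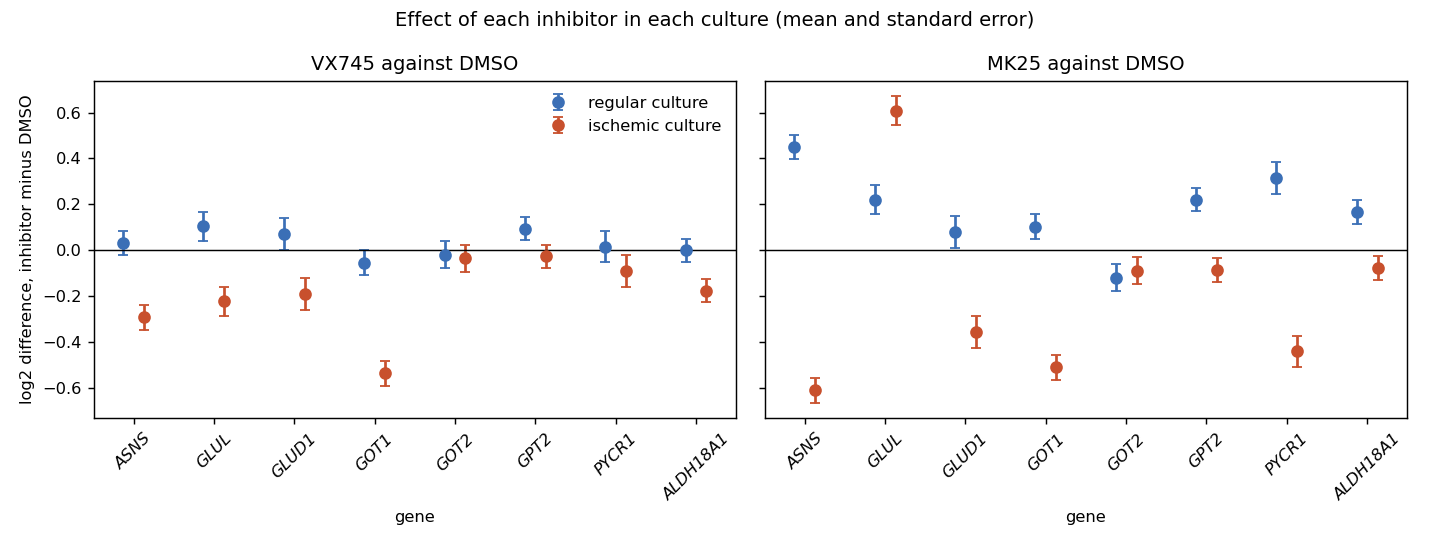
Log2 difference between inhibitor and DMSO (vertical axis) for each gene, in regular culture (blue) and ischemic culture (red), with points for the mean of 2 against 2 libraries and bars for the standard error from limma. With MK25, ASNS and PYCR1 lie above 0 in regular and below 0 in ischemic culture, GLUL lies above 0 in both, and with VX745 the regular points lie between −0.05 and 0.10.

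In regular culture VX745 called none of the 8 genes in limma, with 0.335% of all genes called. None passed an unadjusted p of 0.05 either, and none was called by voom on the recovered reads. The differences ranged from −0.05 for GOT1 to 0.10 for GLUL, and the 95% intervals of the 8 genes lay between −0.17 and 0.24. The libraries of GLUL, GPT2, ASNS and GOT1 did not overlap between VX745 and DMSO, against 41.9% of all genes. In ASNS, for example, the values were 6.52 and 6.54 with VX745 and 6.48 and 6.51 with DMSO.

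MK25 raised 5 of the 8 genes in regular culture and lowered none, where 12.2% of all genes were called, 7% higher and 5.21% lower. None reached a 1.5-fold change (background 2.49%). ASNS, at 6.89 and 7.01 against 6.48 and 6.51, rose 1.37-fold (log2 difference 0.45, standard error 0.05, limma adjusted p = 2.37e-05), and this call held under all 12 alternatives. PYCR1, at 6.84 and 7.05 against 6.57 and 6.70, rose 1.24-fold (log2 difference 0.31, standard error 0.07, limma adjusted p = 0.0065). The PYCR1 call was lost without a variance trend, and its difference ran from 0.211 to 0.417 with each library left out. GPT2, at 5.48 in both libraries, rose by 0.22 (standard error 0.05, limma adjusted p = 0.0099), and GLUL, at 6.22 and 6.26, also by 0.22 (standard error 0.06, limma adjusted p = 0.0303). ALDH18A1, at 6.94 in both libraries, rose by 0.17 (standard error 0.05, limma adjusted p = 0.0452). GOT1, GLUD1 and GOT2 differed by 0.10, 0.08 and −0.12 and did not pass. The count of 5 fell to 2 without a variance trend and 2 with only these groups in the fit, and to 2, 3, 2 and 3 without DMSO replicate 1, DMSO replicate 2, MK25 replicate 1 and MK25 replicate 2.

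Whether an inhibitor acted differently in the cultures was tested as an interaction, the effect in ischemic cells minus that in regular cells. For MK25, 7 of the 8 genes were called, with 24.4% of all genes called. The interaction was −1.06 for ASNS (standard error 0.08, limma adjusted p = 5.96e-08), −0.76 for PYCR1 (standard error 0.10, limma adjusted p = 4.14e-05) and −0.61 for GOT1 (standard error 0.08, limma adjusted p = 3.03e-05). In ASNS and PYCR1 the effect passed the test in both cultures with opposite signs. GLUD1 and GPT2 had interactions of −0.44 and −0.31 (limma adjusted p = 0.00366 and 0.0054), and ALDH18A1 of −0.24 (limma adjusted p = 0.0226). For GLUL, which was higher with MK25 in both cultures, the interaction was 0.39 (standard error 0.09, limma adjusted p = 0.00433), so its rise was larger in ischemic cells. GOT2 had 0.03 (95% interval −0.14 to 0.20). The calls of GPT2 and ALDH18A1 were lost under quantile normalization, which left −0.18 and −0.17.

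For VX745 the interaction was called in 3 of 8 genes, with 11.8% of all genes called. It was −0.48 for GOT1 (standard error 0.08, limma adjusted p = 0.00117), −0.33 for GLUL (standard error 0.09, limma adjusted p = 0.025) and −0.32 for ASNS (standard error 0.08, limma adjusted p = 0.0119). The GOT1 call held under all 16 alternatives, whereas that of GLUL was lost in 7 of them and that of ASNS in 4. Quantile normalization left −0.11 for ASNS (limma adjusted p = 0.402, in a range of 0.00765 to 0.402 over the alternatives). Without a variance trend, and without ischemic VX745 replicate 1, 1 of the 8 genes was called.

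The interactions can be read as the size of the ischemic response under each treatment. ASNS was 7.93-fold higher in ischemic than in regular cells with DMSO, 6.33-fold with VX745 and 3.8-fold with MK25. For GOT1 these folds were 2.45, 1.75 and 1.60, and for PYCR1 2.72, 2.53 and 1.61. GPT2 was 5.35-fold, 4.92-fold and 4.32-fold higher. For GLUD1 the fold went from 1.36 with DMSO to 1.14 with VX745 and 1.01 with MK25. The VX745 interaction did not pass the test for GLUD1, GPT2 and PYCR1 (limma adjusted p = 0.0908, 0.301 and 0.53). GOT2 kept a like fold, at 0.576, 0.569 and 0.588. GLUL stood at 0.930 of its regular level with DMSO, 0.742 with VX745 and 1.22 with MK25.

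MK25 and VX745 were also compared directly in ischemic cells, where 18.4% of all genes differed. GLUL was 1.78-fold higher with MK25 (log2 difference 0.83, standard error 0.06, limma adjusted p = 4.53e-08), and its MK25 libraries at 6.52 and 6.53 lay far above the VX745 libraries at 5.69 and 5.70. PYCR1 and ASNS were lower with MK25, by −0.35 (standard error 0.07, limma adjusted p = 0.00151) and −0.32 (standard error 0.05, limma adjusted p = 0.000397). GOT1, which fell with each inhibitor, differed between them by 0.02 (95% interval −0.09 to 0.14, limma adjusted p = 0.808). The 3 calls held under all 12 alternatives. The doses of the compounds differ, so the comparison is of these treatments as given.

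Other genes of the same pathways were taken from lists that were written with earlier results of these data known. Counts of a list include those of the 8 genes that belong to it, and medians are given without them. The called shares of ischemic culture are again to be set against 70.4% (untreated) and 69.6% (DMSO) of all genes. The list of glutamine-using enzymes (glutaminases and amidotransferases) had values for 14 of 14 genes, ASNS included. In ischemic culture, 5 were higher and 5 lower in untreated cells, and 6 higher and 4 lower with DMSO, with medians of −0.20 and −0.03. GFPT2 and GFPT1, which begin hexosamine synthesis, rose by 2.12 and 1.15 (standard error 0.06 each) with DMSO, and by 1.87 and 1.71 in untreated cells. CTPS1, which makes CTP, fell by 1.03 with DMSO and by 1.62 in untreated cells. The glutaminase GLS2, which opens glutamine breakdown, fell by 1.32 with DMSO at a low level of −0.67 ± 0.28 against 0.65 ± 0.10 (SD, n = 2 each), and differed by 0.12 in untreated cells, which did not pass. With MK25 in ischemic cells, 8 of the 14 genes were lower and 2 higher, where 22% of all genes were lower and 19.8% higher. CTPS1 fell by 0.69, GFPT2 by 0.61 and GFPT1 by 0.48, whereas GLS2 rose by 1.51 from its low level and NADSYN1, the last enzyme of NAD synthesis, by 0.37.

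Of 15 aminotransferases and glutamate dehydrogenases, 14 had values. In ischemic culture 8 were higher and 5 lower in untreated cells, and 6 were higher and 4 lower with DMSO, with medians of −0.01 and 0.15. PSAT1, the aminotransferase of serine synthesis, rose by 1.78 in untreated cells and 2.02 with DMSO, and BCAT1, which acts on branched-chain amino acids, by 1.93 and 1.75. ABAT, which breaks down GABA, fell by 1.18 and 1.27, and OAT, which links ornithine to P5C, by 0.81 and 0.68. MK25 in ischemic cells lowered PSAT1 by 0.44 and BCAT1 by 0.37, together with GOT1 and GLUD1, and raised ABAT by 0.37. The ABAT call, the only higher call of this list, was lost under quantile normalization.

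The proline cycle list had values for 7 of 11 genes, with 3 higher and 3 lower in untreated ischemic cells, and 4 higher and 2 lower with DMSO. The medians were −0.53 and 0.16. ARG2, the mitochondrial arginase that makes ornithine, rose by 4.27 in untreated cells and 4.02 with DMSO (standard error 0.06, limma adjusted p = 6.81e-19), from 4.04 and 4.18 in regular to 8.13 and 8.14 in ischemic DMSO libraries. This was more than the rise of ASNS. PEPD, which releases proline from dipeptides, fell by 0.87 and 0.44. ALDH4A1, which turns P5C back into glutamate, fell by 0.53 in untreated cells and differed by 0.16 with DMSO (limma adjusted p = 0.126). With MK25 in ischemic cells, ARG2 fell by 0.58 and ALDH4A1 by 0.35, beside PYCR1.

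Among genes of asparagine and aspartate use, 4 of 8 were higher and 3 lower in untreated ischemic cells, and 5 of 9 were higher and 2 lower with DMSO, with medians of −0.12 and 0.17. ASS1, which joins aspartate to citrulline, had 1 to 3 reads in each regular library of these groups. The ischemic libraries held between 54 and 119. Set against 3 reads in a regular library, ASS1 was 30.6-fold higher in untreated and 22.6-fold higher in DMSO-treated ischemic cells. The regular reads were too few for a firm fold. AGA, a lysosomal enzyme that frees asparagine from glycoproteins, rose by 0.75 and 0.51. The asparaginase ASRGL1 fell by 0.76 and 0.31, and ADSS2, which uses aspartate for adenine nucleotides, by 0.56 and 0.55. MK25 lowered ADSS2 by 0.37 and ADSL by 0.33 in ischemic cells, 4 of the 9 genes being lower and none higher (22% and 19.8% of all genes). The malate-aspartate shuttle list, to which GOT1 and GOT2 belong, had 1 gene higher and 6 lower of 8 in untreated ischemic cells, and 2 higher and 5 lower of 9 with DMSO, with medians of −0.39 and −0.24. Its aspartate-glutamate carrier SLC25A12 fell by 0.80 and 0.65, and the glutamate carrier SLC25A22 differed by −0.05 in untreated cells and rose by 0.26 with DMSO. The other glutamate carrier, SLC25A18, had values in the second experiment alone and fell by 1.197 at a low level, −0.95 ± 0.35 against 0.25 ± 0.04 (SD, n = 2 each). With MK25 in ischemic cells MDH2, the mitochondrial malate dehydrogenase, fell by 0.24, and under quantile normalization the split of this list went from 2 lower and none higher to 1 lower and 2 higher.

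ATF4 mRNA itself rose in ischemic cells, by 1.54 (limma adjusted p = 1.56e-09) in untreated cells and 1.77 (limma adjusted p = 6.59e-14) with DMSO. In the list of genes of the ATF4 axis, ATF4 included, 9 of 12 were higher and 2 lower in each experiment, where 35.2% (untreated) and 34.4% (DMSO) of all genes were higher, with a median of 1.44 and 1.45. TRIB3, which feeds back on ATF4, rose by 4.15 and 4.02. The stress gene NUPR1 rose from between 3 and 9 reads in the regular libraries of these groups to between 113 and 147 in the ischemic ones, too few in regular cells for a firm fold. EIF2AK4, the sensor kinase GCN2, fell by 1.24 and 0.54. CHAC1, which degrades glutathione, differed by −0.45 in untreated cells, where the groups overlapped and it did not pass, and fell by 0.88 with DMSO. With MK25, ATF4 mRNA rose by 0.47 in regular cells and fell by 0.42 in ischemic cells. ASNS and PYCR1 changed in the same directions, and what part ATF4 has in their changes was not tested. In this list 6 genes were higher and none lower with MK25 in regular cells, against 7% and 5.21% of all genes. In ischemic cells 2 were higher and 9 were lower (3 and 7 under quantile normalization), against 19.8% and 22% of all genes. The medians were 0.24 and −0.38, where those of all genes were 0.00. SESN2, a brake on mTORC1, fell by 1.57 and ATF3 by 0.98 in ischemic cells with MK25, whereas NUPR1 and EIF2AK3, the kinase PERK, rose by 1.0 and 0.35. VX745 lowered 5 of the 12 in ischemic cells and raised none (4 lower and 1 higher under quantile normalization), where 14.9% of all genes were lower and 14% higher, with ATF4 falling by 0.35.

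**Figure D4:**
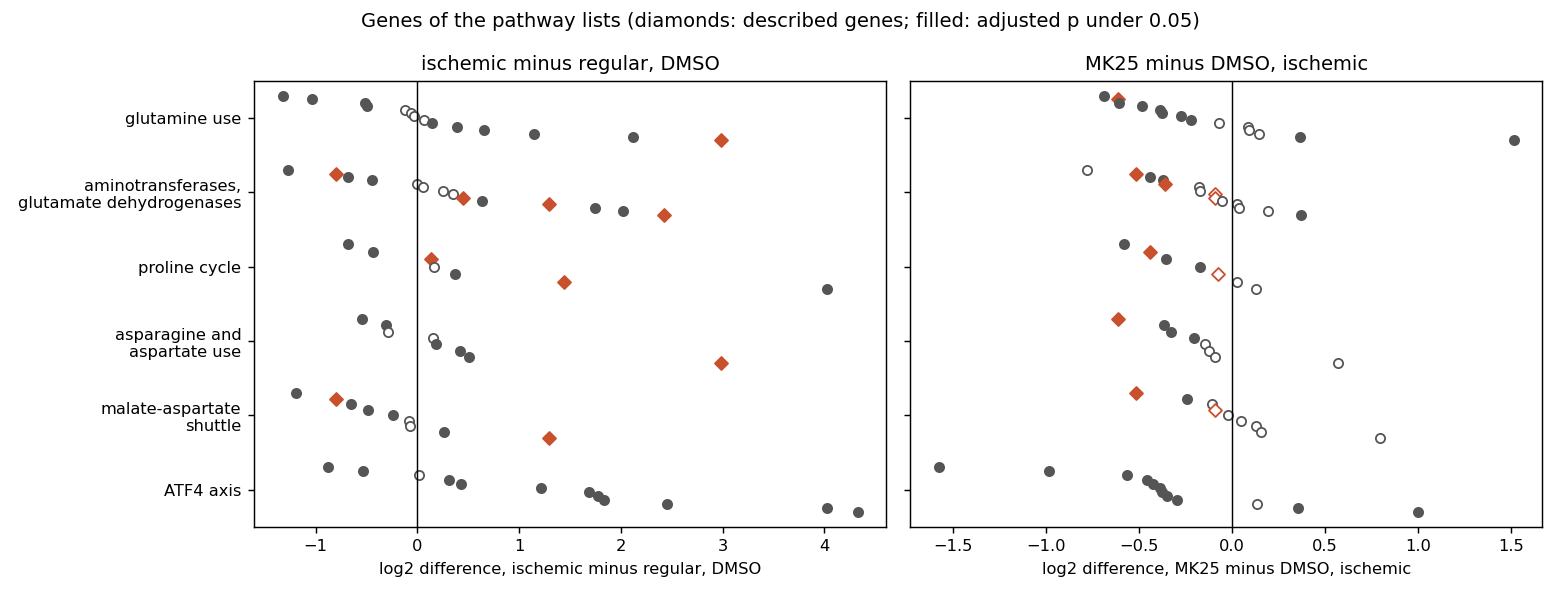
Log2 difference (horizontal axes) of every gene with values in the 6 pathway lists (rows), for ischemic minus regular culture with DMSO on the left and MK25 minus DMSO in ischemic culture on the right. Diamonds are the 8 genes of the set, and filled symbols passed an adjusted p of 0.05 in limma. ASS1, at 3 reads or fewer in regular DMSO cells, is left out of both panels, although ischemic DMSO libraries held 54 and 97 reads. The ATF4 axis lies mostly right of 0 on the left and left of 0 on the right.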

How the data were processed

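LN229 RNA was sequenced from 16 libraries in 8 groups. Libraries were made with SMART-Seq mRNA HT and Nextera XT kits, and per the labels the submitters' processing notes name HISAT2, edgeR and GRCh38. The authors deposited log2 normalized CPM values per gene, named by Entrez identifier, in 2 tables that were normalized separately, so levels were compared only within a table. Undoing the logarithm gave whole reads for 100% of values (tolerance 0.1), with an offset of 1.49 to 2.62 reads, and 20122017 to 37562668 reads per library. A floor of 3 reads was the value that ASS1 was set against, and it covers no spread between libraries. Identifiers matched a symbol for 99.4% and 99.3% of genes.

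From these values, group means were fitted with limma 3.58.1 in R 4.3.3, with a variance trend, all libraries of a table in the fit and two-sided tests, adjusted over all genes of the table. Standard errors and 95% intervals are from this fit. Other settings (scaling, filter, offset, trend, samples, replicate block, voom on the recovered reads, each library left out) were tried. The genes and lists were chosen with earlier results of these data known. By rule, each list contributed its genes with the largest called rises and falls (at most 2 each) with DMSO ischemia and with MK25 in ischemic cells, plus ALDH4A1, OAT, ASRGL1 and ATF4, and some genes the rule names are not reported here. Lengths, overlaps and shared words came from GENCODE 44 on GRCh38, and promoters from RefSeq.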

Additional observations from a re-analysis of the deposited data

Results flagged for a closer look

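With 2 libraries in each group, no group was large enough for a test of a single library standing apart. The effect of an inhibitor differed between ischemic and regular culture, by the interaction in limma, in 10 cases. For MK25 the interaction (ischemic effect minus regular effect, log2) was −1.06 for ASNS, −0.76 for PYCR1, −0.61 for GOT1, −0.44 for GLUD1, −0.31 for GPT2, −0.24 for ALDH18A1 and 0.39 for GLUL. For VX745 it was −0.48 for GOT1, −0.33 for GLUL and −0.32 for ASNS. Of the 16 alternatives, the call was lost in 7 for GLUL and 4 for ASNS with VX745, and in 4 for ALDH18A1 and 1 for GPT2 with MK25, and quantile normalization left −0.11 for ASNS with VX745. ASNS and PYCR1 were the genes in which MK25 passed the test in both cultures with opposite signs. The PYCR1 call in regular cells was lost without a variance trend, whereas that of ASNS was kept. Ischemic libraries with MK25 held 35795468 and 37562668 reads and regular ones 20122017 and 21807502, and the part of depth was not tested.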

How the results depend on the processing

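The difference of each of the 8 genes, and the counts called among them and among all genes, were recomputed under other scalings, filters, offsets and fits, and with each library left out, whereas the counts of the pathway lists were recomputed under other scalings alone, and the order per length and the correlations under none. With 8 genes tested, quantile normalization left 2 called for VX745 in ischemic cells. For MK25 in regular cells 2 were called without a variance trend and 2 with only the groups compared, and for the VX745 interaction 1 without a variance trend. With each library left out, the count ran from 6 to 8 for ischemia with DMSO, from 2 to 3 for VX745 and stayed at 5 for MK25 in ischemic cells, from 2 to 3 for MK25 in regular cells, from 1 to 3 and from 6 to 7 for the VX745 and MK25 interactions. Signs turned only in differences that had not passed the test. Quantile normalization gave 0.0675, 0.0133 and 0.0204 for GPT2, GOT2 and PYCR1 with VX745 in ischemic cells, 0.00605 and 0.0305 for ALDH18A1 and GPT2 with MK25 there, 0.0184 and 0.0115 for ALDH18A1 and GOT2 with VX745 in regular cells and 0.00176 for GOT2 in the VX745 interaction, and centring on the median gave 0.00439 for ALDH18A1 with VX745 in regular cells. With each library left out, ALDH18A1 ran from −0.119 to 0.0029 in untreated ischemia and from −0.0216 to 0.0182 with VX745 in regular cells, where GLUD1 ran from −0.0357 to 0.174, GOT2 from −0.0481 to 0.00762 and PYCR1 from −0.0497 to 0.0801. GLUD1 ran from −0.027 to 0.183 with MK25 in regular cells, GOT2 from −0.0942 to 0.0208 with VX745 in ischemic cells, from −0.074 to 0.0411 in the VX745 and −0.0273 to 0.0877 in the MK25 interaction, and GOT1 from −0.0173 to 0.0672 and GOT2 from −0.107 to 0.0012 between MK25 and VX745. The causes were not tested. Over all genes, VX745 in regular cells called 47, but 6 without a variance trend, 9 with only the groups compared, 13 with voom and 10 to 346 with a library left out, MK25 in regular cells 1712, but 879, 754 and 823 to 1871 (trend, groups, library left out), the VX745 interaction 1653, but 1026 after quantile normalization, 594 without a trend and 601 to 2038, VX745 in ischemic cells 4051, but 2191 to 2794, and MK25 against VX745 2580, but 1323 to 1657.

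With the replicate number as a block, 4 of the 8 genes were called for VX745 in ischemic cells and 4 for MK25 in regular cells, GLUD1 and ALDH18A1 being lost, and the other counts of the 8 genes did not move. Same-numbered libraries correlated with r = 0.271 in the first experiment and between −0.266 and 0.325 in the second, above 0.1 in 4 of 15 pairs of groups, so the numbers were not taken as pairs. Count tests on the recovered reads with edgeR and DESeq2 were planned and not run, and voom took their place, a choice made after seeing the data. Each of the 8 genes had at least 723 reads in every library, so counting depth limits only the low genes GLS2, ASS1, GPT, GLUD2, NUPR1 and SLC25A18.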

Other observations

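The genes whose values ran most like those of each gene were ranked by Pearson correlation over the 12 libraries of the second experiment, among the 10034 genes whose log2 values averaged 3 or more. These libraries fall into regular and ischemic clusters, so the correlation mostly reads the culture difference, and it is given as a description. For ASNS the nearest were POLD4, PCK2 and SHMT2 (r = 0.998 each), and 1893 genes reached an r of 0.9. For GPT2 (ADM and RASSF1 among the nearest, r of 0.997 or more), GOT2 (NACC1, WDR77 and ZDHHC3, r of 0.996 or more), PYCR1 (POLD4, EIF4EBP1 and BCAT1, r of 0.991 or more) and GOT1 (EIF1, WDR45B and OSER1, r of 0.994 or more) between 1446 and 1965 genes did so. GLUL and ALDH18A1 had few such genes. For GLUL 5 genes reached 0.9, led by ID2, CC2D1B and SAT2 (r of 0.923 or more), and for ALDH18A1 only PRCP did (r = 0.927), followed by TMEM59 and SERPINE2. GLUD1 lay between, with 61 genes, led by EIF2S2 (r = 0.976), ACTR3 and TMBIM6.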
